A study of Mus musculus with 9 samples.

Results

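The unfolded protein response of the endoplasmic reticulum (ER) was described in whole mouse lung through 31 genes, chosen by name as its chaperones, folding enzymes, degradation machinery, sensors and PERK-arm genes. Probes were assigned to a gene through the RefSeq accession they carry, and each gene was represented by its probe with the highest mean signal over the 9 arrays. All 31 genes had such a probe, all were well above background on all 9 arrays, and all were among the 16593 named genes tested. They were measured by 48 probes in all, with 1 probe for 18 genes, 2 for 9 and 3 for 4. The lungs came from male C57BL/6J mice, a laboratory strain, aged 12 weeks at the start and exposed for 6 months to fresh air (the air group), to cigarette smoke at 3.5% (CS) or to IQOS aerosol at 3.5%. IQOS is a device that heats tobacco without burning it. Each group had 3 one-colour Agilent arrays of total RNA from the lung, and the labels name no transgene or deletion in any group. Whole lung mixes many cell types, so fewer cells of a type and less RNA per cell cannot be told apart. The labels do not say that the arrays of a group came from separate mice, so the p-values measure only the spread between these arrays.

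The ER folds and glycosylates the proteins that a cell secretes or places in its membranes. Unfolded protein in its lumen is sensed by IRE1 (encoded by Ern1), ATF6 and PERK (encoded by Eif2ak3). IRE1 splices the messenger RNA of Xbp1, cleavage releases an active ATF6 fragment, and PERK phosphorylates the initiation factor eIF2alpha, which slows translation and favours synthesis of ATF4. XBP1 and ATF6 raise transcription of chaperone and degradation genes, in part through the ER stress response element (ERSE), while ATF4 raises Ddit3 (which encodes CHOP), Trib3 and Ppp1r15a. In the lung, alveolar type II cells, airway secretory cells and plasma cells carry heavy secretory loads. An expression array reads neither Xbp1 splicing nor the cleavage or phosphorylation of a sensor.

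The ERSE is shown first because many of the chaperone genes described below share it. It was searched for as CCAAT, any 9 bases and CCACG on both strands of the RefSeq promoter windows (GRCm38.p6), from 250 bases before to 50 bases after each gene's start. A window was given for 26 of the 31 genes. The ERSE was found in 9 of these 26 (34.6%) and in 37 of 27025 genes with a window (0.137%). By role, it was found in 7 of 13 chaperone and folding genes with a window, in 2 of 6 degradation and translocon genes, and in 0 of 7 sensor and PERK-arm genes. A match is a description of the letters and not evidence of binding. In the lines that follow, capitals mark the ERSE, and all sequences run 5′ to 3′ on the gene's strand. The stretch before the start of Pdia6 (chr12:17266339-17266588, plus strand) and that of Hsp90b1 (chr10:86705445-86705694, minus strand) are shown whole, the first because Pdia6 was lower after both exposures and the second because it held 2 ERSEs.
Pdia6: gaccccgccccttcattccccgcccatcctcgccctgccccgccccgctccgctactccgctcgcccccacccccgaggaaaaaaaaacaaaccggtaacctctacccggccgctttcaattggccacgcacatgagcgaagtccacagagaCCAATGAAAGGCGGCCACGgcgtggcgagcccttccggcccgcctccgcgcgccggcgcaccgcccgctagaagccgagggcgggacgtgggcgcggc
Hsp90b1: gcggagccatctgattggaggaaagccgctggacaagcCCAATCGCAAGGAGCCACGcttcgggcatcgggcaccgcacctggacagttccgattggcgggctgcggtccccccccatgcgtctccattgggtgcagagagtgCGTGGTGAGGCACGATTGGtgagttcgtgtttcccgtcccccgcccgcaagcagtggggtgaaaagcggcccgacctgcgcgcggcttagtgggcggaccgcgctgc

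The other ERSEs are given with 16 bases on either side. They lay at chr2:34772009-34772059 (Hspa5, plus strand), chr15:88819504-88819554 (Creld2, plus), chr8:84847059-84847109 (Calr, minus), chr11:50325784-50325834 (Canx, minus), chr14:118937811-118937861 (Dnajc3, plus), chr19:6046516-6046566 (Syvn1, plus) and chr10:75893226-75893276 (Derl3, plus). In Creld2, Calr and Derl3 the element was read on the opposite strand, so its CCACG end appears first as CGTGG.
Hspa5: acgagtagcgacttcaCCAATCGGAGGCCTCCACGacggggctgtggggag
Creld2: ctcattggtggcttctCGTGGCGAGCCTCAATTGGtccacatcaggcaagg
Calr: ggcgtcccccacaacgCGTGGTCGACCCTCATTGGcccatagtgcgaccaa
Canx: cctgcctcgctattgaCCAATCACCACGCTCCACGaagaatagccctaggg
Dnajc3: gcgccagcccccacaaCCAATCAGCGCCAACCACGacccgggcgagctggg
Syvn1: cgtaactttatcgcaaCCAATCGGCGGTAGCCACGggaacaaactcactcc
Derl3: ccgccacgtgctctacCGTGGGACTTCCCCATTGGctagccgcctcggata

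Related elements were less frequent among these genes. ERSE-II, a shorter form searched for as ATTGG, any 1 base and CCACG, was found in 2 of the 26 windows (7.69%, against 0.0444% of all genes), in Herpud1 before the start (chr8:94386361-94386403, plus strand; capitals mark the element) and in Dnajb11 from base 8 after it. The core of the UPR element bound by XBP1, TGACGTGG, was found in 0 of 26 windows and in 0.714% of all genes. The core of the element bound by ATF4 with C/EBP factors, TGATGNAA, was found in Trib3 and Herpud1 (7.69%, against 4.51% of all genes). No 2 matches overlapped in these windows.
Herpud1: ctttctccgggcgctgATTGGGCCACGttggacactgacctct

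**Figure D1:**
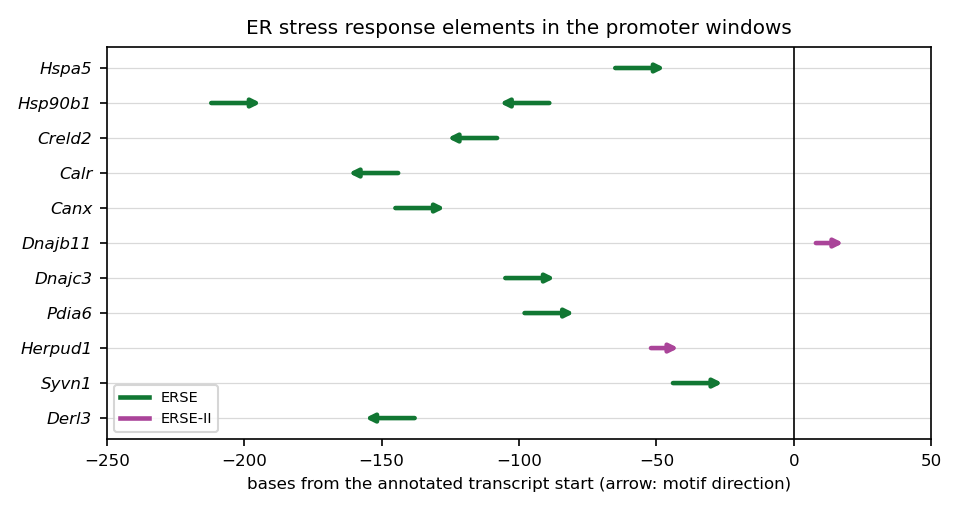
ERSE and ERSE-II positions in the promoter windows of the members that hold either, as distance in bases from the gene's start (x axis), with 1 row per gene. The ERSEs, in 9 members, all lie before the start, and Hsp90b1 has 2. The ERSE-II lies before the start in Herpud1 and after it in Dnajb11.

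On each array, between 64.3% and 68.8% of probes were well above background, and 0 spots were saturated. Spots marked as outliers, which were left out, numbered 85 to 181 on the air arrays, 211 to 220 on the CS arrays and 62 to 90 on the IQOS arrays. The 6 air and CS arrays shared 1 slide and the 3 IQOS arrays lay on a second slide, so an effect of IQOS aerosol cannot be told apart from an effect of the slide. The first and second air arrays and the IQOS arrays were in row 1 of their slide, and the third air array and all CS arrays in row 2, so a value of CS against air adjusted for row rests on the third air array alone. In the lung sample, each of the 11 alveolar type II and 11 club and goblet cell markers was well above background on at least 1 array of every group. Over all 37258 probes tested, limma with Benjamini-Hochberg adjustment (adjusted p under 0.05) called 3840 for CS against air, 1387 for IQOS against air and 3590 for IQOS against CS. Of the calls for IQOS against air, 73.7% were higher, and 54.7% were higher with another background correction (normexp). CS against air and IQOS against air share the air arrays. In what follows, a signal is the probe's background-subtracted intensity divided by its array's 75th percentile, and a change is a difference of mean log2 signals.

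The chaperone genes had lower medians on every exposed array than on any air array, and the lowest after IQOS aerosol. The pooled medians of the sensors and PERK-arm genes stayed within the range of the air arrays. Within that class, the 4 PERK-arm genes alone had median changes of -0.16 after CS and -0.18 after IQOS aerosol. Their signs were mixed, with 3 of 4 below 0 after CS and 2 of 4 after IQOS aerosol. After CS, 1 of the 31 genes fell and 0 rose at an adjusted p under 0.05 (limma). Over all probes tested, 10.3% were called in either direction, 5.68% as lower and 4.63% as higher, so this count was not above the background. After IQOS aerosol, 2 of 31 fell and 0 rose, against a background of 3.72% in either direction, 0.98% as lower and 2.74% as higher. The genes called were Pdia6 after both exposures and Pdia3 after IQOS aerosol. Both encode protein disulfide isomerases, which form and rearrange the disulfide bonds of proteins in the ER.

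More of the 31 genes leaned down than were called. After CS, 22 of 31 changes were below 0 (71%, against 53.2% of all probes), and the 3 CS arrays were all below the 3 air arrays for 10 genes and all above them for 0 (19.6% and 15.5% of all probes). After IQOS aerosol, 27 of 31 changes were below 0 (87.1%, against 50% of all probes), and the arrays were all lower for 13 genes and all higher for 0 (13.9% and 15.2% of all probes). An unadjusted p under 0.05 was reached, always as lower, by 7 genes after CS and 14 after IQOS aerosol (16.5% and 9.82% of all probes). The median change of the 31 genes was -0.10 after CS and -0.17 after IQOS aerosol, and that of all probes was -0.02 and 0.00.

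**Figure D2:**
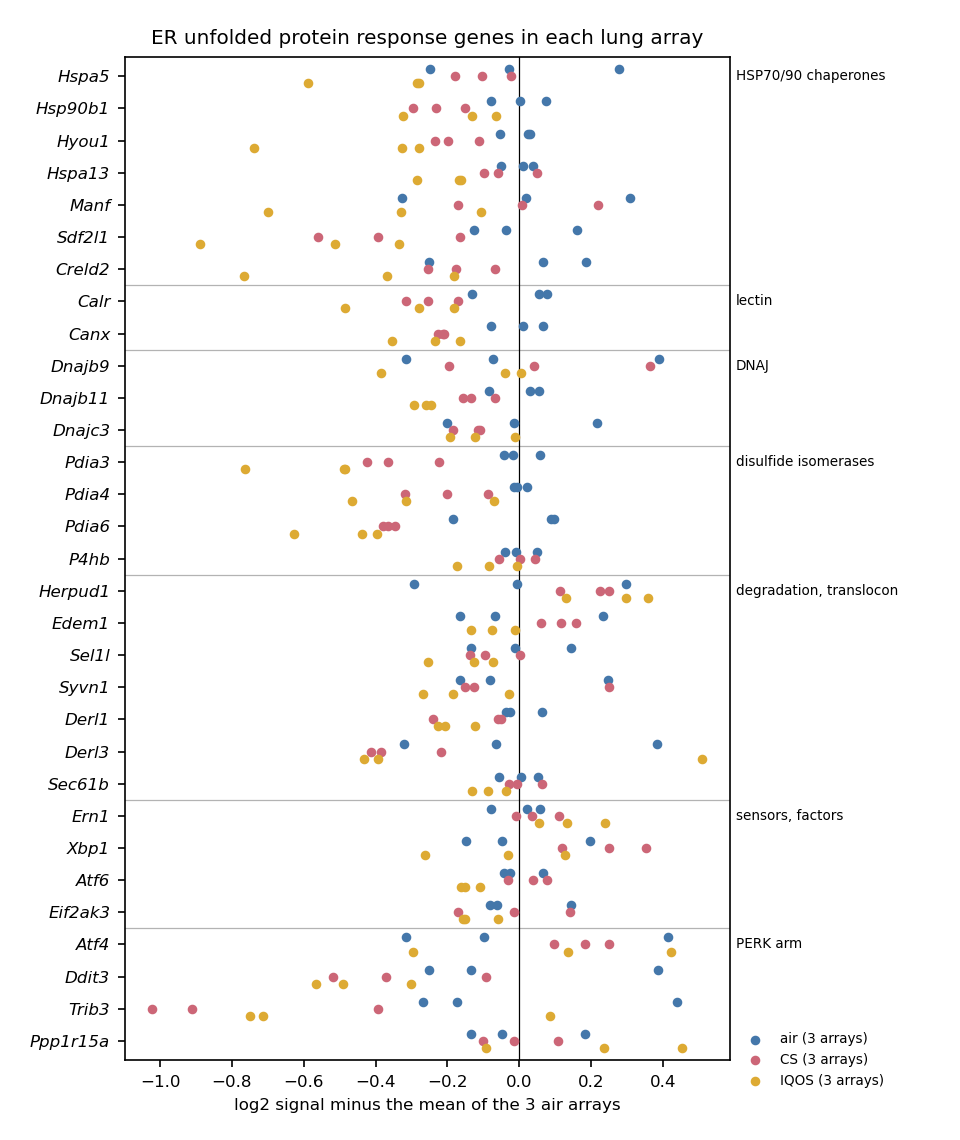
Log2 signal of each of the 31 genes on each array minus the mean of the 3 air arrays (x axis), 1 point per array, coloured by group and ordered by role. Most chaperone rows have their IQOS points left of the air points, as in Pdia3, Pdia6 and Hyou1, while most sensor and PERK-arm rows have overlapping groups.

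Among the disulfide isomerases, Pdia6 had signals of 76.2, 76.5 and 63.0 in air, 55.1, 56.3 and 55.6 after CS, and 46.4, 52.8 and 54.4 after IQOS aerosol. Every exposed array was below every air array, and the 3 CS arrays lay close together. Pdia6 fell by 22.3% after CS (log2 change -0.36 ± 0.10 SE, n = 3 arrays per group, adjusted p = 0.0496, limma) and fell by 28.7% after IQOS aerosol (-0.49 ± 0.10, adjusted p = 0.0370, limma). The call after CS was kept in 1 of 9 fits that left out an array (without the third air array, adjusted p from 0.0338 to 0.157), and was also lost when the row of the array on its slide was added to the fit (-0.18, adjusted p = 0.438). The call after IQOS aerosol was likewise kept in 1 of 9 (without the third air array, 0.0429, against up to 0.136).

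Pdia3, whose product acts with calnexin and calreticulin on glycoproteins, had signals of 8.55, 7.97 and 8.11 in air, 6.36, 7.03 and 6.12 after CS, and 4.83, 5.86 and 5.85 after IQOS aerosol. The groups were ordered air, CS, IQOS with no overlap. Pdia3 fell by 33.1% after IQOS aerosol (-0.58 ± 0.09, adjusted p = 0.0223, limma). After CS its change was -0.34 ± 0.09 (adjusted p = 0.0576, limma). A second Pdia3 probe also fell after IQOS aerosol (-0.48 ± 0.09, adjusted p = 0.0366, limma). The call for the first probe was kept in 5 of 9 fits with an array left out and lost without any one of the air arrays or the second IQOS array (adjusted p up to 0.0929). Over 20 alternatives in processing or samples, the Pdia3 call after IQOS aerosol was kept in 12, and the Pdia6 calls in 5 after CS and 8 after IQOS aerosol.

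Pdia4, a further isomerase, had 1.89, 1.84 and 1.85 in air, 1.49, 1.75 and 1.62 after CS and 1.35, 1.5 and 1.77 after IQOS aerosol. Both exposed groups lay below the air arrays, with changes of -0.20 ± 0.11 (adjusted p = 0.244) and -0.28 ± 0.11 (adjusted p = 0.171, limma) that did not pass the test. P4hb, the isomerase that is also a subunit of collagen prolyl hydroxylase, overlapped between all groups, with changes of 0.00 ± 0.06 and -0.09 ± 0.06. These 4 isomerases spanned changes from -0.58 to -0.09 after IQOS aerosol. The isomerase genes Pdia5 and Pdia2, from a list given below, had 0.18 ± 0.08 and 0.12 ± 0.13 (adjusted p = 0.257 and 0.624, limma). After CS they had -0.31 ± 0.08 and 0.28 ± 0.13 (adjusted p = 0.0525 and 0.186, limma). That list of 29 genes had a median of -0.02 after IQOS aerosol and also held lower values, as for Txndc5 (-0.20 ± 0.06, adjusted p = 0.123, limma).

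**Figure D3:**
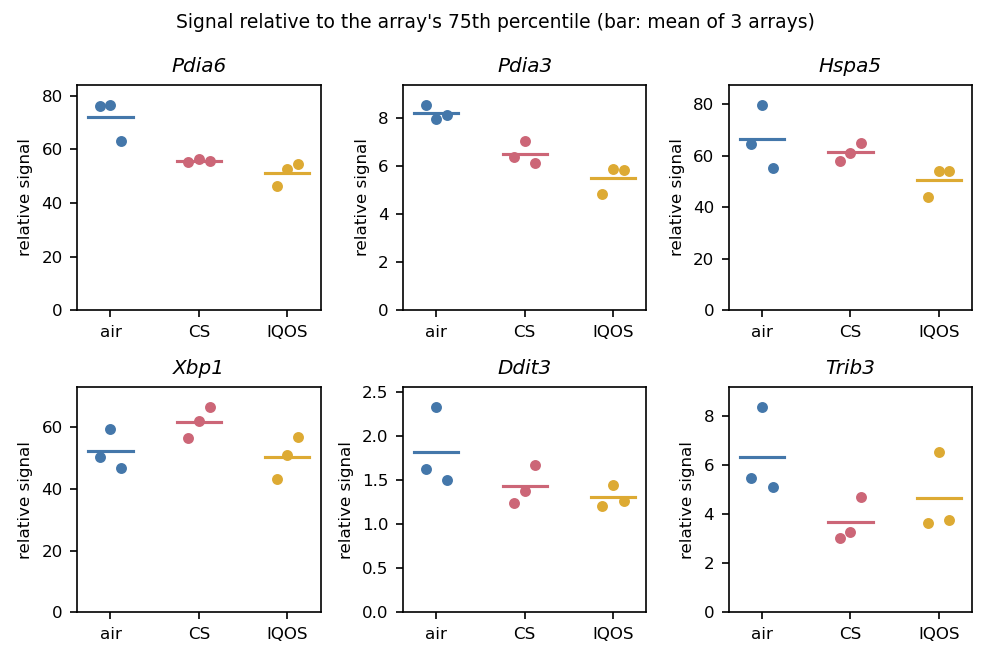
Signal relative to the array's 75th percentile for 6 genes, 1 point per array with the bar at the mean of 3 arrays, each panel with its own y axis from 0. Pdia6 and Pdia3 have every exposed array below the air arrays, Hspa5 has only the IQOS arrays below them, Xbp1 is highest on average after CS, and Ddit3 and Trib3 have 1 high air array.

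Hspa5 encodes BiP, the HSP70 chaperone of the ER lumen that also holds the sensors inactive. Its signals were 64.4, 79.6 and 55.3 in air, 58.1, 61.1 and 64.7 after CS, and 43.8, 54.1 and 53.9 after IQOS aerosol. The CS arrays lay within the air range and the IQOS arrays below it. The changes were -0.10 ± 0.14 (adjusted p = 0.677) after CS and -0.38 ± 0.14 (adjusted p = 0.168, limma) after IQOS aerosol, neither past the test. The 2 other probes of Hspa5 gave -0.57 ± 0.13 and -0.66 ± 0.16 after IQOS aerosol (adjusted p = 0.0595 and 0.0613, limma).

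Like Hspa5, Hyou1 and Sdf2l1 had all IQOS arrays below the air arrays, and unlike it they had all CS arrays below them as well. Hyou1, the nucleotide exchange factor of BiP, had 0.196, 0.198 and 0.186 in air, 0.169, 0.164 and 0.179 after CS and 0.116, 0.159 and 0.154 after IQOS aerosol. Its groups were ordered air, CS, IQOS without overlap, with a change of -0.18 ± 0.12 (adjusted p = 0.344) after CS and of -0.45 ± 0.12 (adjusted p = 0.0792, limma) after IQOS aerosol. Sdf2l1, a cofactor of the DNAJ proteins in the ER, had 1.43, 1.74 and 1.52 in air, 1.06, 1.19 and 1.39 after CS and 0.842, 1.09 and 1.24 after IQOS aerosol. All exposed arrays were below the air arrays, at -0.37 ± 0.16 (adjusted p = 0.169) and -0.58 ± 0.16 (adjusted p = 0.0882, limma).

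Dnajb11, a DNAJ cochaperone that passes substrates to BiP, was the member with the third lowest spread between arrays. It had 8.20, 8.35 and 7.58 in air, 7.21, 7.67 and 7.32 after CS and 6.56, 6.72 and 6.78 after IQOS aerosol. The IQOS arrays were below all other arrays, and the change of -0.27 ± 0.06 against air missed the threshold (adjusted p = 0.0534, limma). A second tested Dnajb11 probe gave -0.23 ± 0.08 after IQOS aerosol (adjusted p = 0.169, limma). After CS the probe used gave -0.12 ± 0.06 and the second 0.02 ± 0.08 (adjusted p = 0.228 and 0.908, limma), opposite in sign. The other DNAJ genes overlapped between groups: Dnajb9 changed by 0.07 ± 0.21 and -0.14 ± 0.21 and Dnajc3, which encodes an inhibitor of PERK, by -0.14 ± 0.11 and -0.11 ± 0.11 after CS and IQOS aerosol, none past the test.

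Creld2 and Manf encode small secreted or ER-resident proteins induced by ER stress. Creld2 had 33.9, 36.8 and 27.2 in air, 27.1, 28.6 and 30.9 after CS and 19.0, 25.1 and 28.6 after IQOS aerosol, and Manf had 6.15, 7.53 and 4.84, then 5.39, 6.11 and 7.08, then 3.74, 4.84 and 5.64. In both, an air array overlapped the IQOS arrays, and the changes after IQOS aerosol were -0.44 ± 0.16 (adjusted p = 0.174) and -0.38 ± 0.20 (adjusted p = 0.317, limma). Hspa13, an HSP70-like ATPase of microsomes, had all IQOS arrays (1.98 to 2.16) below all air arrays (2.33 to 2.48), with a change of -0.21 ± 0.07 (adjusted p = 0.126, limma).

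The lectin chaperones calreticulin and calnexin, which hold glycoproteins until they are folded, were close in value after both exposures with the probes used. Calr had 17.9, 18.2 and 15.7 in air, 13.9, 15.3 and 14.5 after CS and 12.3, 15.2 and 14.2 after IQOS aerosol. Canx had 38.8, 37.3 and 35.1 in air, 32.0, 32.0 and 31.6 after CS and 29.0, 33.1 and 31.5 after IQOS aerosol. For both genes every exposed array was below every air array. Canx changed by -0.22 ± 0.07 after CS and -0.25 ± 0.07 after IQOS aerosol (adjusted p = 0.0802 and 0.0850, limma), and Calr by -0.25 ± 0.10 and -0.32 ± 0.10 (adjusted p = 0.140 and 0.114, limma), so neither passed the test. A second Canx probe gave a smaller change after CS, -0.10 ± 0.06, and -0.24 ± 0.06 after IQOS aerosol (adjusted p = 0.338 and 0.0733, limma). Hsp90b1, the HSP90 of the ER, had 63.4, 66.6 and 59.9 in air, 51.5, 57.0 and 53.8 after CS and 50.6, 60.5 and 57.7 after IQOS aerosol. The CS arrays were below the air arrays while 1 IQOS array overlapped them, with changes of -0.23 ± 0.08 (adjusted p = 0.123) and -0.17 ± 0.08 (adjusted p = 0.277, limma).

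Over the 16 chaperone and folding genes, the median change was -0.17 after CS (range -0.37 to 0.07, 14 of 16 below 0) and -0.30 after IQOS aerosol (range -0.58 to -0.09, 16 of 16 below 0). Taken per array, the median of the 16 genes relative to the air mean was 0.02, 0.08 and -0.08 in air, -0.20, -0.13 and -0.12 after CS, and -0.48, -0.27 and -0.21 after IQOS aerosol. The groups did not overlap, but the first CS array (-0.204) and the third IQOS array (-0.207) were nearly equal. The first IQOS array was the lowest. With any one of the 9 arrays left out, the median change stayed between -0.23 and -0.13 after CS and between -0.36 and -0.22 after IQOS aerosol. With array row in the fit, the CS value was -0.08, and the changes of Hspa5 and Creld2 after CS turned to 0.15 and 0.09.

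The 8 sensor and PERK-arm genes had medians of 0.01 after CS (4 of 8 below 0) and -0.09 after IQOS aerosol (5 of 8 below 0). Of these, the 4 PERK-arm genes had medians of -0.16 (3 of 4 below 0) and -0.18 (2 of 4). The 4 sensors and their factors had 0.04 (1 of 4 below 0) and -0.09 (3 of 4). Per array the median of the 8 genes was -0.06, 0.19 and -0.14 in air, 0.06, -0.02 and 0.07 after CS, and -0.13, 0.03 and -0.13 after IQOS aerosol. All exposed arrays lay within the air range, which was wider than for the chaperones. The difference between the classes is a description of genes that share the arrays and was not tested.

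**Figure D4:**
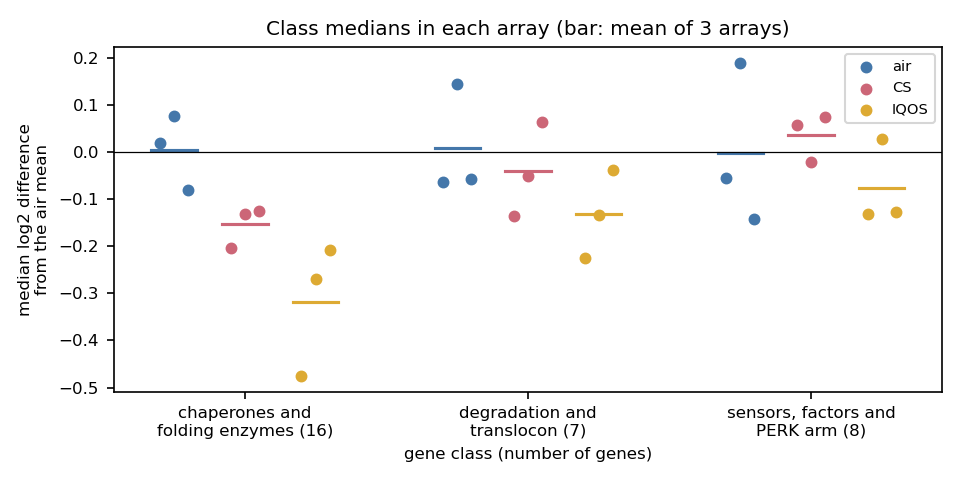
Median log2 signal of the chaperone, degradation and sensor or PERK-arm genes on each array, relative to the mean of the 3 air arrays (y axis), 1 point per array. The chaperone medians are ordered air, CS, IQOS without overlap, from 0.08 on the highest air array to -0.48 on the lowest IQOS array. The lowest CS and highest IQOS medians nearly meet (-0.204 and -0.207). The medians of the other classes overlap.

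Of the sensors, Ern1, which encodes IRE1, changed by 0.05 ± 0.07 and 0.14 ± 0.07, and Eif2ak3, which encodes PERK, by -0.01 ± 0.10 and -0.12 ± 0.10 after CS and IQOS aerosol, with overlapping groups. Atf6 had 2.07, 1.92 and 1.94 in air, 2.08, 1.94 and 2.03 after CS, and 1.83, 1.78 and 1.77 after IQOS aerosol. It had the lowest spread of the 31 genes (residual SD 0.05 on the log2 scale, against a median of 0.14 over all probes), and its IQOS arrays were below all others. The change against air was small, -0.14 ± 0.06, and did not pass the test (adjusted p = 0.208, limma).

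Xbp1, which encodes the transcription factor downstream of IRE1, had 50.3, 59.6 and 46.9 in air, 56.5, 61.9 and 66.4 after CS and 43.4, 50.9 and 56.7 after IQOS aerosol. Its highest air array lay among the CS arrays. The change was 0.24 ± 0.13 after CS (adjusted p = 0.248) and -0.06 ± 0.13 after IQOS aerosol (adjusted p = 0.837, limma). The 2 other probes of Xbp1 both gave 0.40 after CS (± 0.15 and ± 0.16, adjusted p = 0.135 and 0.143, limma), so no probe passed, and none separates the spliced form.

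In the PERK arm, Atf4 had 82.0, 117 and 70.5 in air, 99.7, 93.8 and 104 after CS and 96.5, 118 and 71.6 after IQOS aerosol, with wide overlap and changes of 0.18 ± 0.22 and 0.09 ± 0.22. Trib3, a pseudokinase induced by ATF4 and CHOP, had 5.47, 8.37 and 5.12 in air, 3.04, 3.28 and 4.70 after CS, and 3.67, 6.54 and 3.76 after IQOS aerosol. The CS arrays were below the air arrays and 1 IQOS array was not. Trib3 had the largest negative value of the 31 genes after CS, -0.78 ± 0.29, but also the highest spread (residual SD 0.40), and did not pass (adjusted p = 0.123, limma).

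Ddit3, which encodes the pro-apoptotic factor CHOP, had 1.62, 2.32 and 1.49 in air, 1.24, 1.37 and 1.67 after CS and 1.20, 1.44 and 1.27 after IQOS aerosol. The IQOS arrays were below the air arrays and the CS arrays overlapped them, with changes of -0.33 ± 0.18 (adjusted p = 0.267) and -0.45 ± 0.18 (adjusted p = 0.194, limma). Ppp1r15a, whose product GADD34 reverses eIF2alpha phosphorylation, changed by 0.00 ± 0.15 and 0.20 ± 0.15. No PERK-arm gene was called as higher. After CS the 95% interval ran from -0.74 to 0.09 for Ddit3 and from -0.33 to 0.68 for Atf4. With 3 arrays per group and the spread of these genes (residual SD 0.24 for Ddit3 and 0.30 for Atf4), neither change could be told from 0. The intervals for Ddit3 after IQOS aerosol (-0.87 to -0.04) and Trib3 after CS (-1.44 to -0.11) lay below 0. They are not adjusted for the number of probes, and neither gene passed the adjusted test.

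**Figure D5:**
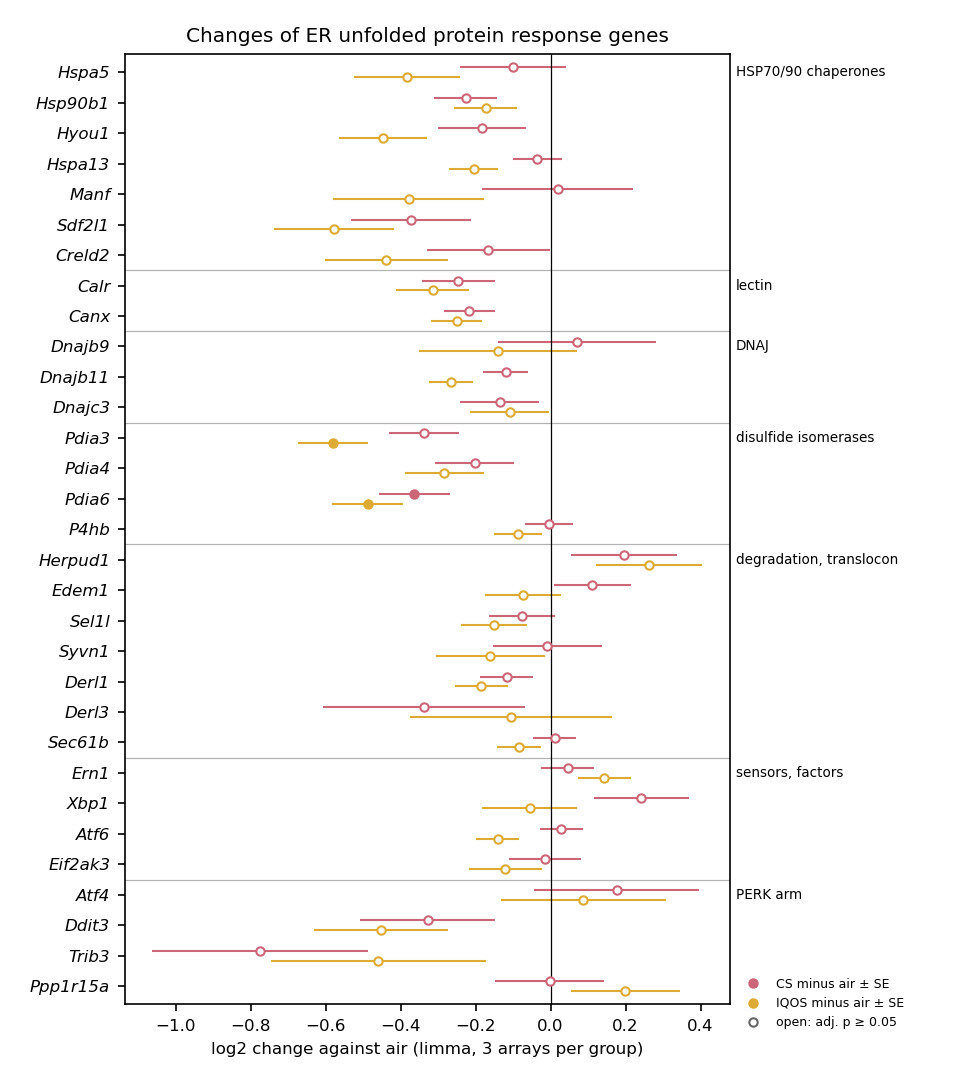
Log2 change against air with its standard error (x axis) for the 31 genes after CS and after IQOS aerosol, ordered by role, with filled points for an adjusted p under 0.05. The filled points are Pdia6 after both exposures and Pdia3 after IQOS aerosol, and Herpud1 has the highest change after IQOS aerosol.

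The degradation genes, which carry misfolded protein out of the ER, and the translocon gene Sec61b had a median of -0.01 after CS and -0.11 after IQOS aerosol, and 0 of 7 passed. At an unadjusted p under 0.05 there were 0 after CS and 1 after IQOS aerosol, against 28.9% and 21.8% of all probes. Herpud1, a scaffold of the degradation complex, was the member with the highest change after IQOS aerosol. It had 19.8, 29.9 and 24.2 in air, 28.4, 26.3 and 28.9 after CS and 29.9, 31.2 and 26.6 after IQOS aerosol, with 1 air array inside the exposed range. Its changes were 0.20 ± 0.14 (adjusted p = 0.397) and 0.26 ± 0.14 (adjusted p = 0.321, limma).

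The remaining genes of this class ranged from -0.34 to 0.11 after CS and from -0.18 to -0.07 after IQOS aerosol. Derl1, a channel component, had all exposed arrays (3.48 to 3.97) below all air arrays (4.01 to 4.29), with changes of -0.12 ± 0.07 and -0.18 ± 0.07 that did not pass. The ubiquitin ligase Syvn1 and its adaptor Sel1l overlapped between groups, at -0.01 ± 0.14 and -0.08 ± 0.09 after CS and -0.16 ± 0.14 and -0.15 ± 0.09 after IQOS aerosol. Derl3 varied most, with signals from 0.687 to 1.12 in air and from 0.635 to 1.22 after IQOS aerosol. Edem1, a mannosidase-like protein, was at 0.11 ± 0.10 after CS with the probe used and at 0.30 ± 0.09 with its other probe (adjusted p = 0.0721, limma). After IQOS aerosol the probe used gave -0.07 ± 0.10 and the other 0.20 ± 0.09 (adjusted p = 0.716 and 0.253, limma), opposite in sign.

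IQOS aerosol and CS were also compared with each other. None of the 31 genes passed (limma, 0 of 31, against 9.64% of all probes in either direction, 3.93% as lower and 5.71% as higher), and 5 were lower and 0 higher at an unadjusted p under 0.05 (28% of all probes reached it in either direction and 11.5% as lower). The IQOS arrays were all below the CS arrays for 9 genes and all above for 0 (13.9% and 18.9% of all probes), and 24 of 31 changes were below 0 (77.4%, against 44.6% of all probes). The median was -0.16 for the chaperones and -0.10 for the sensor and PERK-arm genes, against 0.03 for all probes. Without the first IQOS array the chaperone median was -0.07. Atf6 was at -0.17 ± 0.06 (adjusted p = 0.105), Xbp1 at -0.30 ± 0.13 (adjusted p = 0.173), Hspa5 at -0.28 ± 0.14 (95% interval -0.61 to 0.04) and Pdia3 at -0.24 ± 0.09 (adjusted p = 0.139, limma, 95% interval -0.46 to -0.03). The 2 other Xbp1 probes gave -0.46 ± 0.15 and -0.50 ± 0.16 (adjusted p = 0.0994 and 0.0839, limma). Those of Hspa5 gave -0.38 ± 0.13 and -0.44 ± 0.16 (adjusted p = 0.112 and 0.115, limma). The second Pdia3 probe gave a smaller change, -0.18 ± 0.09 (adjusted p = 0.263, limma). For Pdia6 the interval ran from -0.34 to 0.09.

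Genes of the response were high or low together on arrays of the same group. The second air array was the highest of its group for 25 of the 31 genes (80.6%, against 39.4% of all probes with a value on every array), and the third air array was the lowest for 24 (77.4%, against 38.7%). The first IQOS array was the lowest of its group for 25 of 31 genes and for 16 of 16 chaperones (38.1% of all probes), and the first CS array for 13 of 16 chaperones (35.2%). The 31 genes are therefore not independent readings of an exposure, and a single array moves many of them at once.

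The genes with an ERSE were mostly chaperones. Their median change was -0.22 after CS and -0.25 after IQOS aerosol, with 9 of 9 below 0 in each. For the 17 genes with a window and no ERSE it was 0.00 (10 below 0) and -0.12 (13 below 0). The 12 tested genes outside the 31 that also held an ERSE had medians of -0.22 (9 of 12 below 0) and -0.09 (9 of 12 below 0), and the 13091 named genes with a window had -0.01 and -0.01 (52.7% and 52.5% below 0). Among those 12, Acacb and Calr4 were called lower after CS (limma, against 5.92% of the named genes with a window). In IQOS against CS, the medians were -0.07 for the 9 genes (6 below 0), -0.10 for the 17 (13 below 0), 0.13 for the 12 (3 below 0) and 0.02 for all named genes with a window (47.1% below 0), and Acacb and Zfp57 were called higher (4.75% of the named genes with a window). Of the called genes Pdia6 held an ERSE, shown above, and Pdia3 did not.

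Lists of other ER genes are read against the shares over all probes. For CS against air, IQOS against air and IQOS against CS in turn, 10.3%, 3.72% and 9.64% of all probes were called, and 28.9%, 21.8% and 28% had an unadjusted p under 0.05. Of 22 translocon, signal peptidase and oligosaccharyltransferase genes, 1 rose after CS, Stt3b, a catalytic subunit of the oligosaccharyltransferase (0.55 ± 0.06, adjusted p = 0.00408, limma). After IQOS aerosol 0 of 22 passed (limma), while 10 had an unadjusted p under 0.05 (against 21.8% of all probes), and the median was -0.14. Against CS, Stt3b (-0.53 ± 0.06) and Ssr3, a translocon-associated subunit (-0.27 ± 0.06), were lower after IQOS aerosol. Of 29 further folding enzymes and cochaperones, 3 fell after CS: Uggt2, of the family that senses glycoprotein folding (-0.55 ± 0.11), Cnpy3, a chaperone of Toll-like receptors (-0.24 ± 0.06), and Dnajc1 (-0.19 ± 0.05). After IQOS aerosol 0 of 29 passed (limma, 8 at an unadjusted p under 0.05, median -0.02). In IQOS against CS, Uggt2 (0.58 ± 0.11) and the isomerase Pdia5 (0.49 ± 0.08) were higher and Serp1 was lower (-0.27 ± 0.07).

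Of 20 tested further degradation genes, 0 passed against air after either exposure (limma, 2 at an unadjusted p under 0.05 in each, against 28.9% and 21.8% of all probes). The ubiquitin-conjugating enzyme gene Ube2j2 was lower after IQOS aerosol than after CS (-0.22 ± 0.05). Of 22 tested further signalling genes, Mbtps1, which encodes the site-1 protease that cleaves ATF6, fell after CS (-0.22 ± 0.05, adjusted p = 0.0366, limma) and Creb3, which encodes an ER-anchored transcription factor, rose (0.23 ± 0.06, adjusted p = 0.0475, limma), where 5.68% and 4.63% of all probes were called lower and higher. After IQOS aerosol 0 of 22 passed (limma, 8 at an unadjusted p under 0.05, against 21.8% of all probes), and against CS the gene of eIF2alpha, Eif2s1, was lower (-0.28 ± 0.07).

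Of 25 ATF4 and CHOP target genes, 2 fell and 0 rose after each exposure (5.68% of all probes were called lower after CS and 0.98% after IQOS aerosol). Nupr1, a stress-induced chromatin regulator, fell after CS (-1.67 ± 0.16, adjusted p = 0.00327, limma) and after IQOS aerosol (-0.97 ± 0.16, adjusted p = 0.0229, limma). Atf5, a transcription factor of the integrated stress response, fell after CS (-0.50 ± 0.11), and Phgdh, the first enzyme of serine synthesis, fell after IQOS aerosol (-0.84 ± 0.14). The median of the list was 0.16 after CS and -0.08 after IQOS aerosol. In IQOS against CS, 2 were called higher and 0 lower, Nupr1 (0.70 ± 0.16) and Vldlr, a lipoprotein receptor (0.26 ± 0.07), 11 of 25 had an unadjusted p under 0.05 (28% of all probes), and the median was -0.26, opposite in sign to the calls. Of 21 cytosolic and mitochondrial heat shock genes, 0 passed in any comparison (limma), and 1, 2 and 2 had an unadjusted p under 0.05 for CS against air, IQOS against air and IQOS against CS. Their medians were 0.06, -0.11 and -0.17.

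Among cell type markers, calls after CS were mostly in immune, fibroblast and endothelial lists, read against 4.63% of all probes called higher and 5.68% called lower. Of 14 B and plasma cell markers, 3 fell (Ms4a1, Fcrla and Blk), and the summed level of the list ran from 37.3 to 59.98 in air, 36.9 to 47.6 after CS and 45.4 to 62.6 after IQOS aerosol. The median change of these markers was -0.46 after CS and -0.24 after IQOS aerosol. Of 13 alveolar macrophage markers, 6 rose after CS, with sums of 192 to 208 in air, 334 to 443 after CS and 204 to 238 after IQOS aerosol. Neutrophil markers rose in 4 of 14 (sums of 188 to 241, 352 to 779 and 188 to 449), and fibroblast and endothelial markers fell in 3 of 10 and 2 of 10. Of 11 alveolar type II markers, 1 rose after CS, Sftpd, with sums of 1340 to 1371, 1407 to 1481 and 1237 to 1389 in air, CS and IQOS lungs. The sums of the 11 club and goblet cell markers ran from 1013 to 1202, 1237 to 1501 and 1195 to 1452, and 0 of them passed (limma). At an unadjusted p under 0.05 there were 3 after CS and 2 after IQOS aerosol, against 28.9% and 21.8% of all probes. After IQOS aerosol 0 markers passed in any of these lists (limma, with 1 to 3 per list at an unadjusted p under 0.05, against 21.8% of all probes). No listed marker that was tested was below background on all arrays of a group. The part of these cell types in the chaperone values was not tested.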

How the data were processed

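Whole-lung total RNA was hybridised to 9 one-colour arrays, 3 per group. The deposited files give background-subtracted intensity values per spot from Agilent's scanner software (Feature Extraction version 10.7.1.1, per the submitters' processing notes). The deposited series values are a linear ratio of signal to each array's 75th percentile, a scale found from the values, and were used as an alternative. Each array's log2 intensity was centred on its 75th percentile here; log2 values were computed from the deposited intensities. Probes well above background on every array of at least 1 group were tested (37258 of 56605). A fit over all 9 arrays used limma 3.58.1 in R 4.3.3 (files read with data.table, version 1.17.8), with Benjamini-Hochberg adjustment over all probes and calls at an adjusted p under 0.05. The fit was tested on simulated data. The number of arrays limits precision: an exact permutation test of 3 against 3 cannot go below p = 0.1. Named were all 31 genes and, from each list, up to 4 called genes with the smallest p. Acacb, Calr4, Zfp57 and called cell markers were named after their values were seen. Pdia2 and Txndc5 were named outside this rule. The genes and lists were chosen with earlier results of these data known. The mean signal column was absent, so normexp (offset 50) used the median signal. Slide could not be fitted as a block.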

Additional observations from a re-analysis of the deposited data

How the results depend on the processing

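The chaperone median stayed below 0 in every comparison under the 11 alternatives, from -0.19 to -0.08 for CS against air, -0.34 to -0.30 for IQOS against air and -0.27 (array row) to -0.13 for IQOS against CS. The sensor and PERK-arm median for IQOS against CS was 0.027 under normexp and -0.22 with array row. Of the 31 genes, those called for CS against air numbered 4 under quantile normalization, 3 with an intensity trend, 3 at an adjusted p under 0.1, and 0 with median centring, no filter, the deposited ratios, the replicate block, array row, the mean of a gene's probes or only the arrays compared. For IQOS against air they numbered 4 under normexp or an intensity trend, 6 at an adjusted p under 0.1, 1 with median centring or array row, and 0 with no filter, the replicate block or only the arrays compared. For IQOS against CS they numbered 2 under normexp. Probes called for IQOS against air numbered 2621 (normexp), 780 (median centring), 356 (no filter), 540 (replicate block), 287 (array row), 444 (arrays compared) and 3281 (adjusted p under 0.1). For CS against air they numbered 1541 (no filter), 311 (array row) and 7098 (adjusted p under 0.1), and for IQOS against CS 1658 (no filter), 83 (array row), 1769 (arrays compared) and 6523 (adjusted p under 0.1). No cause was tested. The replicate numbers were not treated as pairs: same-numbered arrays correlated at -0.08 to -0.04 between air and CS, 0.08 to 0.20 between air and IQOS and 0.01 to 0.16 between CS and IQOS, so not every pair was above 0.1. Among the IQOS arrays, every air array did correlate best with that of its own number, which is a hint from the data and not the design. The first air array correlated more with the third CS array (0.11) than with the first IQOS array (0.08).

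With each array left out in turn, probes called ranged over 725 to 3303, 124 to 1095 and 1273 to 3214 for CS against air, IQOS against air and IQOS against CS, and genes of the 31 over 0 to 1, 0 to 1 and 0 to 0. Chaperone medians ranged over -0.23 to -0.13, -0.36 to -0.22 and -0.19 to -0.07, and sensor and PERK-arm medians over -0.02 to 0.07, -0.14 to -0.0028 and -0.13 to -0.0022.

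Signs turned in 27 single-gene values, none of them called. Under normexp these were Sec61b (-0.0047) and Ppp1r15a (0.021) for CS against air, Edem1 (0.013) and Xbp1 (0.057) for IQOS against air and Canx (0.036), Pdia4 (0.055), Eif2ak3 (0.0014) and Atf4 (0.052) for IQOS against CS. Under quantile normalization these were Manf (-0.0013) and Sec61b (-0.049) for CS against air and Canx (0.0084) for IQOS against CS. With array row these were Hspa5 (0.15), Creld2 (0.086), Dnajc3 (0.066), P4hb (0.037), Sel1l (0.058), Syvn1 (0.16), Eif2ak3 (0.068) and Ppp1r15a (0.13) for CS against air, Derl3 (0.087) and Atf4 (-0.070) for IQOS against air and Hsp90b1 (-0.063), Dnajc3 (-0.28), Ern1 (-0.022) and Trib3 (-0.086) for IQOS against CS. With the mean of a gene's probes these were Manf (-0.018) for CS against air and Edem1 (0.063) for IQOS against air. Leaving out 1 array turned 33 further single-gene values, none of them called. For CS against air the ranges over the 9 such fits were Hspa5 -0.23 to 0.037, P4hb -0.027 to 0.024, Syvn1 -0.14 to 0.11, Eif2ak3 -0.093 to 0.063, Ppp1r15a -0.069 to 0.089, Manf -0.14 to 0.17, Dnajb9 -0.088 to 0.26 and Sec61b -0.018 to 0.036. For IQOS against air the ranges over the 9 such fits were Dnajb9 -0.30 to 0.054, Edem1 -0.16 to 0.044, Xbp1 -0.15 to 0.048, Derl3 -0.41 to 0.087 and Atf4 -0.079 to 0.29. For IQOS against CS the ranges over the 9 such fits were Calr -0.14 to 0.016, Canx -0.077 to 0.018, Pdia4 -0.19 to 0.0093, Hsp90b1 -0.00066 to 0.13, Dnajc3 -0.023 to 0.068, Derl3 -0.075 to 0.40 and Atf4 -0.26 to 0.10.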
